A study of Homo sapiens with 4 samples.

Results

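The 41 genes described here act in homologous recombination, in the Fanconi pathway of DNA crosslink repair and in the DNA damage checkpoint, and include the poly(ADP-ribose) polymerases that PARP inhibitors target. They were chosen by gene symbol for their relevance to PARP inhibitor response in prostate cancer, with earlier results of these data known. Of the 41, 36 had a probe set read on all 4 arrays, out of 17687 named genes. BRCA2, RAD54B, FANCA, FANCD2 and RBBP8 were not analysed here. Each of the 36 genes was read by 1 probe set.

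The cells were 22Rv1, a human castration-resistant prostate cancer line that grows without testicular androgen. They received an siRNA labelled siOCT1, aimed at the octamer-binding transcription factor OCT1, or a control siRNA (siControl). After 48 h they were given 10 nM dihydrotestosterone (DHT), the potent natural androgen, or ethanol vehicle for 24 h. Before the hormone, all cells had spent 3 days in medium with 2.5% charcoal-stripped serum, so every group, siControl in vehicle included, was deprived of serum steroids. The 4 groups, siOCT1 with DHT, siOCT1 with vehicle, siControl with DHT and siControl with vehicle, held 1 array each. No difference between single arrays therefore has a replicate check. The labels do not say how many siRNA sequences were used, and the level of OCT1 itself was not analysed here, so siOCT1 stands for the transfection as labelled.

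Values are log2 expression signals. A signal counted as above background where it exceeded 95% of the negative control probe sets on the same array, a level of 7.39 for siOCT1 in vehicle and 6.91 for siOCT1 in DHT, against 6.62 and 6.99 for siControl. The array with siOCT1 in vehicle thus had the highest background. Of the prostate epithelial markers, HOXB13, FOLH1, KRT8, KRT18 and EPCAM lay above background on all 4 arrays and KLK3 on 2 of them. Of 14 basal, stromal, endothelial and immune markers, 12 lay below background on every array, among them KRT5, PECAM1 and PTPRC. COL1A2 exceeded it on 1 array, with siControl, and ACTA2, a gene of smooth muscle and activated fibroblasts, on both siOCT1 arrays and no siControl array. ACTA2 was at least 2.19-fold higher with siOCT1 in vehicle and at least 1.30-fold in DHT (limma adjusted p = 0.0231). FOLH1 was also higher with siOCT1, by 0.98 and 1.63 on the log2 scale (adjusted p = 0.0171). The summed linear signal of the 14 was 493.1 in vehicle and 534.9 in DHT with siOCT1, against 341.9 and 379.2 with siControl, and the part of these markers in the results was not tested.

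Homologous recombination repairs a broken chromosome by copying an intact sister chromatid, and it operates in the S and G2 phases of the cell cycle. The MRE11-RAD50-NBN complex finds the end, nucleases resect it, BRCA1, PALB2 and BRCA2 prepare the strand for invasion, and helicases and nucleases separate the joined molecules. The Fanconi pathway ubiquitinates FANCI and FANCD2 at DNA crosslinks and hands over to recombination. ATM and ATR are the apical damage kinases, and they signal through CHEK2 and CHEK1. Tumour cells with defective recombination are sensitive to PARP inhibitors, which is why these genes are followed in prostate cancer.

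Most of the 36 genes had lower signal in siOCT1 cells. Since the list was chosen with earlier results of these data known, its share of called genes is a description and not independent support. In all, 22 fell and 0 rose in an additive model of siRNA and ligand fitted over all named genes with limma, at a Benjamini-Hochberg adjusted p below 0.05. That is 61.1% of the 36, where 5.9% of all named genes were called lower and 3.25% higher. With arrays centred on positive controls, which moved the median difference of all genes in vehicle to 0.25, these shares were 7.41% and 7.49%. Among the 7467 named genes whose mean lay above background, 11.6% were called lower and 6.08% higher, and 15 of the 23 repair genes in that class fell. BRCA1, BARD1, FANCI and POLQ entered that class through their siControl values, as both their siOCT1 values lay below background. At an unadjusted p below 0.05, 26 of the 36 were lower and 0 higher, against 13.7% and 11.7% of all named genes. The model has 2 arrays per siRNA and 1 residual degree of freedom. A gene's own error is thus its siRNA-by-ligand difference and not the spread between repeat cultures. limma draws that error towards a trend over all genes, with 5.89 prior degrees of freedom. Standard errors and p-values therefore rest mostly on the other genes, not on the gene's own difference.

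A count by size used the deposited values past 1.5-fold in vehicle and also in DHT, values below background included, so it is no count of measured folds. It held 25 of the 36 genes as lower and 0 as higher, against 10.7% and 7.94% of all named genes. The negative control probe sets, which measure no transcript, passed the same rule in 8.01% (lower) and 10.6% (higher) of cases. Of the 25 genes, 9 lay above background on all 4 arrays, and 14 genes passed the rule with values raised to the highest background. In vehicle alone 26 were lower and 1 higher, where 18.8% and 19% of all named genes were. In DHT alone, where the array with the high background plays no part, 27 were lower and 1 higher, beside 17.6% and 16.3%. For 28 genes both siOCT1 values lay below both siControl values, and for 1 gene above them, where 24.5% and 27% of all named genes did so. The median difference was -1.78 in vehicle and -1.42 in DHT, beside 0.04 and 0.02 over all named genes. In addition, 13 of the 36 genes had a mean signal that was not above background, and 6 lay below it on every array. When values were raised to the highest of the 4 backgrounds and genes at that level throughout left out, 13 of 28 genes fell, beside 11.9% of all genes so tested, and the medians were -0.64 in vehicle and -1.09 in DHT. Some of the 28 exceeded that level only with siControl, BRCA1 and POLQ among those called. For such genes this filter left no direction but lower, so it is no independent check of them.

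**Figure D1:**
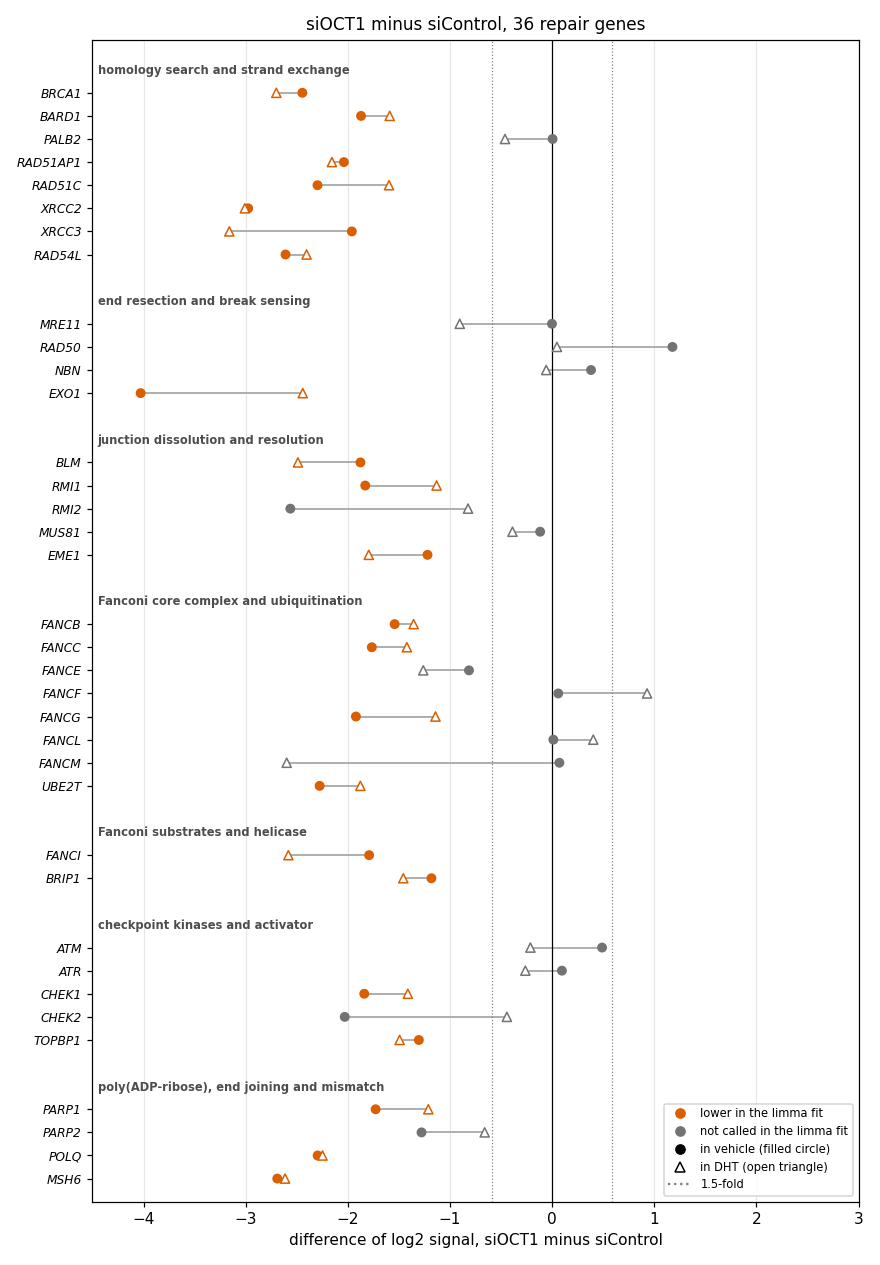
Difference of log2 signal between siOCT1 and siControl (x axis) for each of the 36 genes (rows, grouped by role), with a filled circle for the vehicle pair and an open triangle for the DHT pair. Orange marks the 22 genes called lower by limma, and dotted lines mark 1.5-fold. Most genes lie left of 0 in both states, while PALB2, MRE11, RAD50, NBN, FANCF, FANCL, FANCM, ATM and ATR have a point at or right of 0.

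Promoter sequence is shown for EXO1, XRCC2, MSH6, BRCA1 and XRCC3, the 5 genes with the most negative mean difference of deposited values among the 33 that have a promoter window in the RefSeq table (GRCh38.p14). That order rests partly on unmeasured values, since MSH6, BRCA1 and XRCC3 lay below background on both siOCT1 arrays and EXO1 on 1. With values raised to the highest background the mean differences were -2.99 for XRCC2, -2.60 for EXO1, -1.06 for BRCA1, -0.68 for MSH6 and 0 for XRCC3, beside -2.08 for UBE2T. RAD50, the gene with the highest mean difference, follows them and was added after the values were seen. EXO1 and BRCA1 have 2 windows each and MSH6 has 4, of which 1 is shown. Each line runs 5′ to 3′ on the strand of the gene, over 120 bases that start 70 bases before the annotated transcription start. Capitals mark TTCCCGC or its reverse complement, a core of the sequence that E2F factors recognise in genes of S phase.
EXO1, chr1:241848134-241848253, plus strand: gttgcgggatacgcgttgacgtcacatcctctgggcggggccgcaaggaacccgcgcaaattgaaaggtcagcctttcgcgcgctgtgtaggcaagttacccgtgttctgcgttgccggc
XRCC2, chr7:152676092-152676211, minus strand: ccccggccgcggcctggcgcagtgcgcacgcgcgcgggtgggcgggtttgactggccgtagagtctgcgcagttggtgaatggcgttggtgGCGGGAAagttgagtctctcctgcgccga
MSH6, chr2:47783075-47783194, plus strand: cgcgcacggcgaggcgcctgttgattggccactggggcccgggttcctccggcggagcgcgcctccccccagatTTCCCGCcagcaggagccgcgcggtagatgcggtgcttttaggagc
BRCA1, chr17:43125315-43125434, minus strand: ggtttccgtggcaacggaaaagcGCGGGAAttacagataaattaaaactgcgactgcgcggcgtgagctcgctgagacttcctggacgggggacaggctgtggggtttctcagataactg
XRCC3, chr14:103715402-103715521, minus strand: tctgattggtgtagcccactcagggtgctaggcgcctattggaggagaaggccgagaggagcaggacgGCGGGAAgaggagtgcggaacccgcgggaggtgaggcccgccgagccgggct
RAD50, chr5:132556907-132557026, plus strand: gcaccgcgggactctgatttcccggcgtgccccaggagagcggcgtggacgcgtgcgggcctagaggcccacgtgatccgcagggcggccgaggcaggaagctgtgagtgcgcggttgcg

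The windows searched held 300 bases, 250 before and 50 after the start, and both strands were read. TTCCCGC was found for 17 of the 33 genes, 51.5%, against 7.82% of the 27305 genes in the table and 13.7% of those with a mean signal above background. It was present for 14 of the 21 lower genes and for 3 of the 12 others, FANCE, FANCL and PARP2. Neither window of EXO1 held it, nor did that of RAD50. The longer forms GGCGGGAA and TTTCCCGC, which overlap it, were found for 12 and 3 genes (3.79% and 1.98% of all genes), and TTTGGCGC for 0 (0.795%). The octamer ATGCAAAT, the motif that OCT factors bind, was found for 1 gene, PARP2, against 2.19% of all genes. The cell cycle element TTTGAA was found for 5 (18.2%), its variant TTCGAA for 1 (1.82%) and CCAAT for 17 (39.7%). A match is a description of the letters and not a binding site, and genes with several windows had more sequence searched.

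Of the 8 genes of homology search and strand exchange 7 fell, where 5.9% of all named genes were called lower. The median differences of deposited values were -2.17 (vehicle) and -2.28 (DHT). These are not measured folds, since BRCA1, BARD1, RAD54L and XRCC3 lay below background on both siOCT1 arrays. RAD51AP1 lay below it with siOCT1 in vehicle. XRCC2, a factor of strand exchange, read 8.58 in vehicle and 9.14 in DHT with siOCT1, against 11.55 and 12.15 with siControl. Its differences of -2.98 and -3.01 were nearly equal in the 2 ligand states. Their mean was -2.99 ± 0.24 (standard error of the limma fit, moderated over all genes), with a limma adjusted p of 0.0025. RAD51C, another such factor, read 9.01 and 9.37 with siOCT1, against 11.31 and 10.96 with siControl, with differences of -2.30 and -1.60 (adjusted p = 0.0104). All 4 values of both genes lay above background and the siRNA groups did not overlap.

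BRCA1, the ubiquitin ligase that directs repair towards recombination, read 5.71 in vehicle and 6.05 in DHT with siOCT1, both below background, against 8.15 and 8.75 with siControl. The fall was at least 1.69-fold without DHT and at least 3.59-fold with it (adjusted p = 0.00706). BARD1, its obligate partner, read 5.78 and 6.46 with siOCT1, against 7.65 and 8.05 with siControl. The fall was at least 1.19-fold and 2.20-fold (adjusted p = 0.021). PALB2, which bridges BRCA1 to BRCA2, was not called and read 8.50 and 8.33 with siOCT1 against 8.49 and 8.79 with siControl. Its groups overlapped, with a mean difference of -0.23 ± 0.29 and an adjusted p of 0.688.

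RAD51AP1, a stimulator of strand invasion, read 6.83 and 7.62 with siOCT1, against 8.87 and 9.77 with siControl. Its fall was at least 2.78-fold without DHT, and with DHT the difference was -2.16 (adjusted p = 0.00861). RAD54L, a motor that remodels the invading filament, read 4.82 and 5.76 with siOCT1, against 7.43 and 8.17 with siControl, at least 1.03-fold and 2.39-fold lower. XRCC3 was below background in siOCT1 cells at 4.88 and 4.04, against 6.84 and 7.20 with siControl. In vehicle no fold can be given for it, since the siControl value lay under the background of the siOCT1 array, and in DHT it was at least 1.22-fold lower. RAD54L and XRCC3 were called lower with adjusted p of 0.00754 and 0.013. After raising to the highest background, BARD1 (adjusted p = 0.142) and RAD54L (0.254) lost their call, and XRCC3 lay at that level on every array and was not tested.

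**Figure D2:**
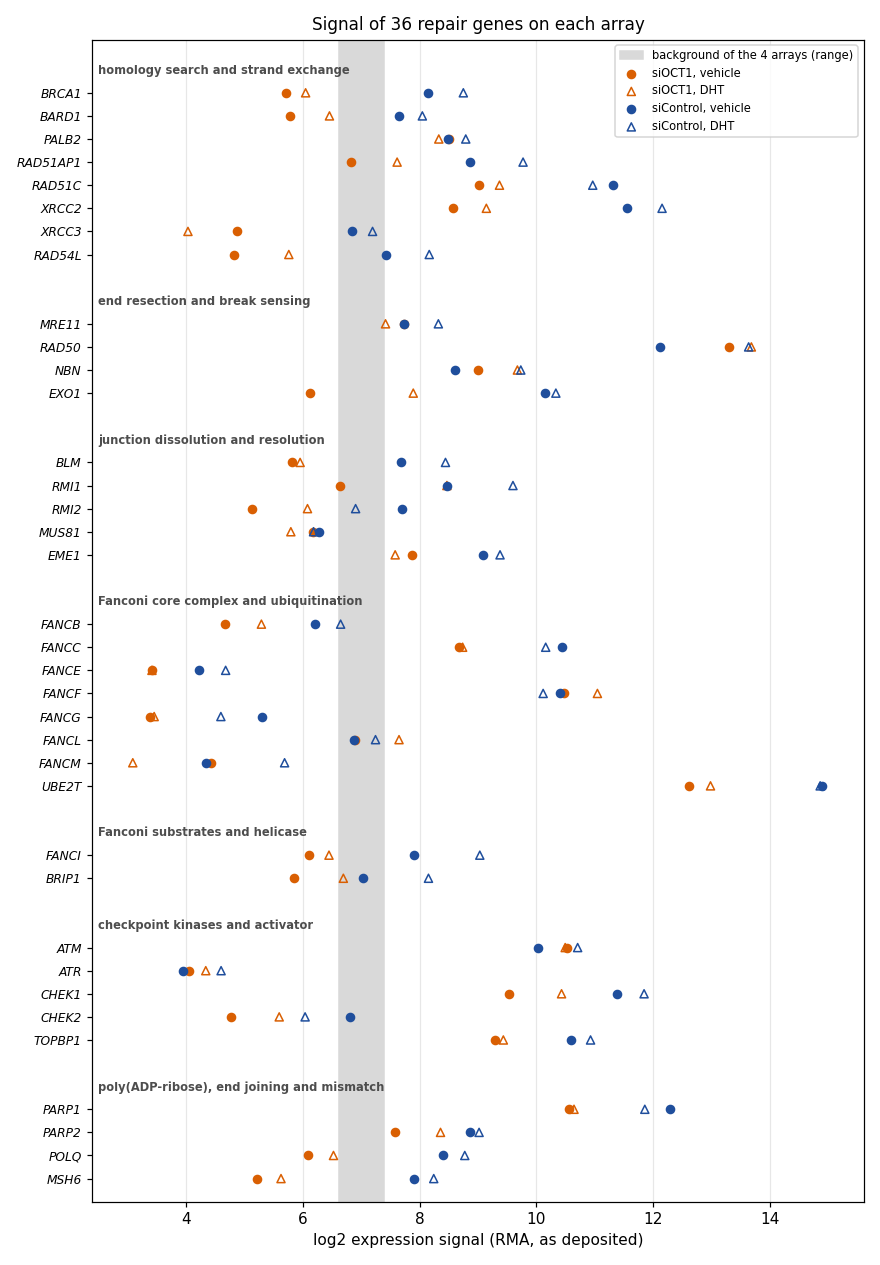
Log2 signal (x axis) of the 36 genes (rows, grouped by role) on each of the 4 arrays, with orange for siOCT1 and blue for siControl, filled circles for vehicle and open triangles for DHT. The grey band spans the backgrounds of the 4 arrays, 6.62 to 7.39. The siOCT1 points lie left of the siControl points for XRCC2, EXO1, UBE2T and CHEK1, and mix with them for PALB2, NBN and ATM.

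EXO1 was the 1 gene called among the 4 of end resection and break sensing. It encodes the exonuclease of long-range resection. EXO1 read 6.12 in vehicle and 7.89 in DHT with siOCT1, against 10.15 and 10.33 with siControl. Its fall was at least 6.76-fold without DHT, and with DHT the difference was -2.44 (adjusted p = 0.00756). With values raised to the highest background its mean difference was -2.60, against -3.23 as deposited. The siOCT1 values lay far below both siControl values.

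The break sensor MRE11-RAD50-NBN had no subunit called, although all 3 lay above background on every array. MRE11, its nuclease, read 7.73 and 7.42 with siOCT1, against 7.73 and 8.32 with siControl, a mean difference of -0.45 ± 0.34 (adjusted p = 0.464). RAD50, its ATPase, read 13.29 and 13.68 with siOCT1, against 12.12 and 13.63 with siControl. The difference of 1.18 in vehicle was near 0 in DHT, at 0.05, and the mean of 0.61 ± 0.29 had an adjusted p of 0.247. NBN, which recruits ATM, read 8.99 and 9.67 with siOCT1, against 8.61 and 9.73 with siControl (adjusted p = 0.774). Missing the threshold does not show that these genes were alike in both groups.

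The BLM helicase acts with RMI1 and RMI2 to dissolve double Holliday junctions, and BLM and RMI1 fell. BLM read 5.81 and 5.96 with siOCT1, against 7.69 and 8.44 with siControl. The fall was at least 1.23-fold and 2.90-fold, with an adjusted p of 0.0122, or 0.108 with raised values. RMI1, a scaffold of the complex, read 6.64 and 8.47 with siOCT1, against 8.47 and 9.60 with siControl, at least 2.11-fold lower without DHT and different by -1.13 with it (adjusted p = 0.0324). RMI2, its other scaffold, read 5.13 and 6.08 with siOCT1, against 7.70 and 6.90 with siControl, and was not called (adjusted p = 0.0673). Both its DHT values lay below background.

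MUS81 and EME1 form 1 structure-selective nuclease, of which the EME1 gene fell. EME1 read 7.86 and 7.58 with siOCT1, against 9.08 and 9.38 with siControl, all above background, with differences of -1.22 and -1.80 (adjusted p = 0.0274). MUS81 lay below background on every array, between 5.80 and 6.29, so its change could not be measured here. Whether the 2 subunits changed unequally was not tested.

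In the Fanconi pathway UBE2T, FANCI and BRIP1 fell, as did the core complex genes FANCC, FANCB and FANCG, which are described further below. UBE2T, the ubiquitin-conjugating enzyme that acts on FANCD2 and FANCI, read 12.61 and 12.98 with siOCT1, against 14.88 and 14.86 with siControl. Its siRNA groups were far apart while the 2 ligand states were close, with differences of -2.28 and -1.88 (adjusted p = 0.00379). FANCI, its substrate, read 6.11 and 6.45 with siOCT1, against 7.90 and 9.03 with siControl. The fall was at least 1.42-fold and 4.36-fold, with an adjusted p of 0.013, or 0.0699 with raised values. BRIP1, a helicase that binds BRCA1, read 5.85 and 6.70 with siOCT1, against 7.03 and 8.15 with siControl, at least 2.37-fold lower in DHT. Its adjusted p of 0.0459 became 0.287 with raised values and 0.0775 with 32 added before the logarithm.

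Genes of the core complex, which monoubiquitinates those substrates, were mixed. FANCC read 8.68 and 8.74 with siOCT1, against 10.44 and 10.16 with siControl, with differences of -1.77 and -1.42 (adjusted p = 0.0165). FANCF, an adaptor of the complex, read 10.47 and 11.04 with siOCT1, against 10.41 and 10.12 with siControl, and was the 1 gene whose siOCT1 values both lay above its siControl values. Its mean of 0.49 ± 0.29 was not called (adjusted p = 0.347). FANCL, the catalytic ligase, stood at 6.89 and 7.65 with siOCT1, against 6.88 and 7.25 with siControl (adjusted p = 0.741). Its siOCT1 value in vehicle lay below background, so the near-equal vehicle values are no measured equality and no fold can be given. FANCB, FANCE, FANCG and FANCM lay below background on all 4 arrays. FANCB and FANCG were nevertheless called lower (adjusted p = 0.0374 and 0.0328), and for none of the 4 can a fold be given.

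Of the checkpoint genes, CHEK1 and TOPBP1 fell. CHEK1, the kinase that ATR activates, read 9.53 in vehicle and 10.43 in DHT with siOCT1, against 11.37 and 11.84 with siControl. Its differences were -1.84 and -1.41 (adjusted p = 0.0127), and its groups did not overlap. TOPBP1, the activator of ATR, read 9.29 and 9.43 with siOCT1, against 10.60 and 10.93 with siControl, with differences of -1.30 and -1.49 (adjusted p = 0.0203). ATM read 10.52 and 10.49 with siOCT1, against 10.04 and 10.71 with siControl, and its groups overlapped (mean 0.14 ± 0.27, adjusted p = 0.81). ATR lay below background throughout, between 3.95 and 4.60. CHEK2, the kinase downstream of ATM, exceeded background on 1 array, siControl in vehicle at 6.80, and was not called (adjusted p = 0.135).

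PARP1, the main sensor of DNA strand breaks and the chief target of PARP inhibitors, was lower. It read 10.56 and 10.64 with siOCT1, against 12.29 and 11.86 with siControl, with differences of -1.73 and -1.21 (adjusted p = 0.0167). PARP2 read 7.58 and 8.36 with siOCT1, against 8.86 and 9.02 with siControl. Its differences of -1.28 and -0.66 did not pass the test (adjusted p = 0.0952), although the groups did not overlap. POLQ, the polymerase of microhomology-mediated end joining, read 6.10 and 6.53 with siOCT1, against 8.39 and 8.77 with siControl, at least 2.0-fold and 3.65-fold lower (adjusted p = 0.00836). MSH6, a mismatch recognition subunit, read 5.22 and 5.63 with siOCT1, against 7.91 and 8.24 with siControl. The fall was at least 1.43-fold and 2.52-fold, with an adjusted p of 0.00665, or 0.0608 with raised values.

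Other repair genes are described beside these as context, and differences between lists were not tested. Of 29 other recombination genes 5 fell, RPA3, RECQL4, MCM8, FIGNL1 and RPA1, and the median differences were -0.46 (vehicle) and -0.88 (DHT). MCM8, a helicase subunit of recombination, had differences of -2.26 and -2.21. RPA3, a subunit of the single-strand binding protein, was at least 1.98-fold and 2.23-fold lower, while RECQL4 lay below background throughout. FIGNL1 and RPA1 were named after their values were seen. Of 15 other Fanconi and crosslink genes 2 fell, the ubiquitin ligase gene RFWD3, with differences of -2.07 and -2.14, and DCLRE1B, which lay below background throughout. Of 26 other checkpoint and signalling genes 8 fell and 1 rose. TIMELESS, a fork protection factor, was lower by at least 2.0-fold and 2.09-fold in the 2 ligand states. CDC25A, a phosphatase that checkpoint kinases inhibit, was at least 1.09-fold lower with DHT, and the histone variant gene H2AX had differences of -2.60 and -2.61. The gene that rose was the cell cycle inhibitor CDKN1A, by 1.65 and 1.55, and it was named after its values were seen.

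Of 10 end joining genes 2 fell, the kinase gene PRKDC, with differences of -1.76 and -1.40, and the end-binding subunit XRCC6, with -1.16 and -1.12. In base excision repair 4 of 22 fell, FEN1, LIG1, TDG and NEIL3, the last named after its values were seen. LIG1 lay below background on every array. FEN1, the flap endonuclease, was at least 13.0-fold lower without DHT and different by -3.49 with it. None of 16 nucleotide excision genes and none of the 4 mismatch genes outside MSH6 was called by limma, with medians over both ligand states of 0.12 and -0.08. By size, 2 of the nucleotide excision genes were lower and 1 higher in both ligand states.

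Markers of the S and G2/M phases moved with the recombination genes. All 28 of them fell in the limma fit, with medians of -2.65 in vehicle and -2.25 in DHT, and the siRNA groups did not overlap for any. Their summed linear signal was 18140 in vehicle and 22800 in DHT with siOCT1, against 141000 and 147500 with siControl. RRM1, the large ribonucleotide reductase subunit, had differences of -4.15 and -3.88. Cyclin A2 (CCNA2) had -4.01 and -3.74, and the small reductase subunit RRM2 had -4.16 and -3.34. On every array 17 of the 28 lay above background, and CDT1 lay below it on all 4. In a bulk sample fewer cells in these phases and less RNA per cell cannot be told apart, and their part in the lower signal of the repair genes was not tested.

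**Figure D3:**
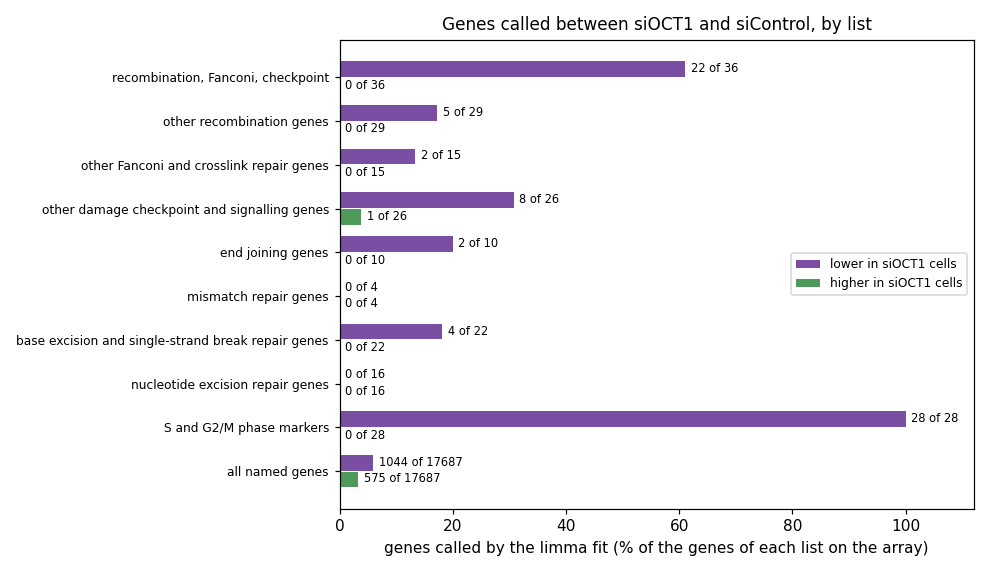
Share of each list called lower (purple) or higher (green) in siOCT1 cells by the limma fit (x axis, percent of the list's genes on the array), with counts at the bars. The share called lower was 61.1% for the 36 genes described here, between 0% and 30.8% for the other repair lists, 100% for the S and G2/M markers and 5.9% for all named genes. The lists were chosen with earlier results of these data known.

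By deposited values, DHT was followed by small positive differences in most of the repair genes, none of which passed the test over all genes. In the limma fit 0 of the 36 were called higher and 0 lower, where 0.243% and 0.0792% of all named genes were. At an unadjusted p below 0.05, 9 were higher and 0 lower, against 5.25% and 4.62% of all named genes. The 9 were RMI1, NBN, RAD50, BRIP1, RAD51AP1, CHEK1, RAD54L, XRCC2 and EXO1. By size under both siRNAs, again on deposited values, 5 were higher and 0 lower, against 3.08% and 3.1%, and 2 were higher with values raised to the highest background. These were RAD51AP1, RAD54L, NBN, RMI1 and BRIP1, and 7.68% of the negative control probe sets were also higher by this rule. The median response was 0.38 in siOCT1 cells and 0.39 in siControl cells, beside -0.01 and -0.02 over all named genes, and 29 and 27 of the 36 responses were positive. Over all 17687 named genes, 8773 and 8489 responses were positive. Some of the signs are not measured responses, as both values lay below background, for FANCB and ATR under both siRNAs.

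RMI1 had the largest mean response, 1.48. In siOCT1 cells it was at least 2.11-fold higher with DHT, at 8.47 against 6.64 in vehicle. In siControl cells it read 9.60 with DHT against 8.47 in vehicle (adjusted p = 0.161 over both siRNAs, and 0.0217 with arrays centred on positive controls). NBN differed by 0.68 in siOCT1 cells and 1.12 in siControl cells (adjusted p = 0.352). RAD50 differed by 0.39 and 1.52 (adjusted p = 0.353). The strand exchange factor RAD51AP1 was higher with DHT by at least 1.17-fold in siOCT1 cells and by 0.90 on the log2 scale in siControl cells. XRCC2 differed by 0.56 and 0.60, and CHEK1 by 0.90 and 0.47. BRIP1 differed by 1.13 in siControl cells, while both its siOCT1 values lay below background. None of these passed the adjusted threshold. Of the known androgen-induced genes measured with them, 6 of 13 rose with DHT in the limma fit, where 0.243% of all named genes did. Their median responses were 2.65 in siOCT1 cells and 2.55 in siControl cells. The siOCT1 median is the value of KLK2, whose siOCT1 signals both lay below background. KLK2 and DBI were also called lower with siOCT1.

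Within siOCT1 cells the deposited values of 13 of the 36 genes were higher with DHT past 1.5-fold and those of 2 lower, values below background included, against 12.1% and 12% of all named genes. Within siControl cells 14 were higher and 3 lower, against 11.4% and 10.5%. Altogether 5 passed in the same direction under both siRNAs, 7 in siOCT1 cells alone, 9 in siControl cells alone and 3 in opposite directions, though for each of the 3 both siOCT1 values lay below background. The median change of the response, siOCT1 minus siControl, was 0.01, and these changes are single values with no test. EXO1 had a response of 1.77 in siOCT1 cells, where its vehicle value lay below background, and 0.18 in siControl cells. PARP1 had responses of 0.08 and -0.43, PARP2 of 0.78 and 0.16, ATM of -0.03 and 0.67, and BRCA1 of 0.34, with both siOCT1 values below background, and 0.60.

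**Figure D4:**
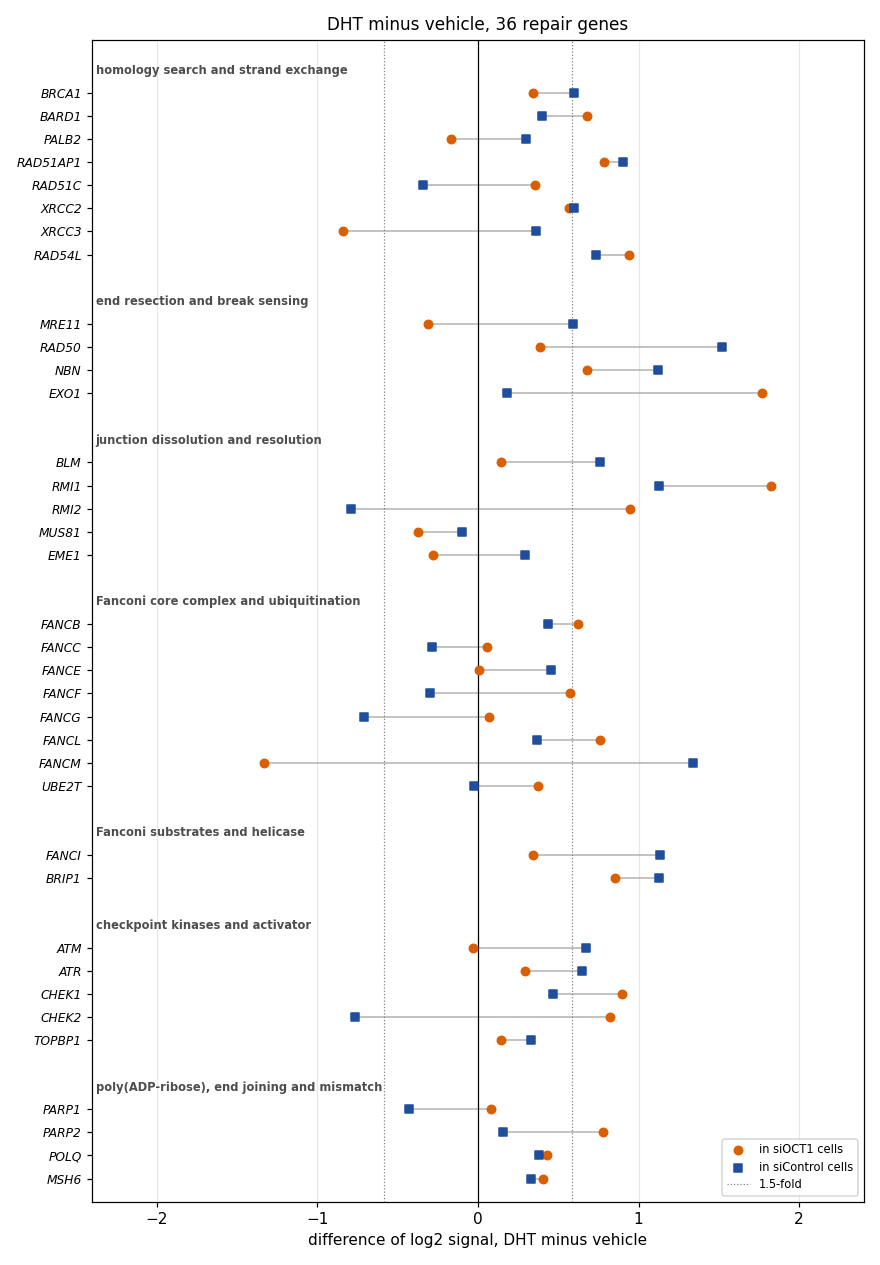
Difference of log2 signal between DHT and vehicle (x axis) for the 36 genes (rows, grouped by role), with orange circles for siOCT1 cells and blue squares for siControl cells, and dotted lines at 1.5-fold. Most points lie right of 0, and the points of 1 gene lie farthest apart for FANCM, RMI2, EXO1 and CHEK2.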

How the data were processed

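Total RNA from 22Rv1 cells was hybridised to Affymetrix whole-transcript arrays, per the labels. The deposited values are log2 signals. The submitters' processing notes name RMA and Affymetrix Expression Console, without versions or a genome build. RMA forces arrays to a common distribution. The log base was read from the values, and 327 to 379 per array exceeded 16, so folds hold on the deposited scale only.

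Of 24351 probe sets, 17709 had 1 gene symbol, 0 had several and 3739 transcript probe sets were unnamed here. These gave 17687 genes. For the 20 genes with several probe sets, the brightest by mean was kept. Across probe sets, Pearson r between arrays lay between 0.97 and 0.987. Precision is limited by the small number of arrays, and nothing says that they came from separate cultures. The p-values measure no spread between repeat cultures or arrays. They rest on each gene's siRNA-by-ligand difference, moderated over all genes. POU2F1, the gene of OCT1, was not analysed here.

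The fit had additive terms for siRNA and ligand over every named gene, without a filter on low values. It used lmFit and eBayes (trend on mean signal, 5.89 prior degrees of freedom) of limma 3.58.1 under R 4.3.3, and p-values were adjusted by Benjamini-Hochberg, with calls below 0.05. The verbs rose and fell are kept for such calls. Pairs of arrays were counted at 1.5-fold. Where the dimmer signal of a pair was below background, a minimum fold was taken from the brighter signal and the background of the dim array. Pairs with both signals below background, or a brighter signal that did not exceed that background, have no fold. The fit was also run on simulated data with equal noise in every gene, additive effects and no background level. Those data meet the assumptions of the model, so they do not check how the fit performs on these arrays. Named were all listed genes and up to 3 called genes with the largest mean difference per other list. The genes and lists were chosen with earlier results of these data known. Alternatives were a 2-fold rule, 2 filters on dim genes, values raised to background, 32 added before the logarithm, 3 centrings, the mean of probe sets, and limma without trend or with robust moderation. Leaving out genes constant after raising was chosen after seeing the data. Tables were made in Python 3.11.15 (numpy 2.4.6, pandas 2.3.3, statsmodels 0.14.6).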

Additional observations from a re-analysis of the deposited data

Results flagged for a closer look

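For 3 of the 36 genes the deposited log2 values differed with DHT in opposite directions under the 2 siRNAs, by more than the log2 of 1.5 each way. None of the 3 had a measured response under both siRNAs, since signals lay below background. RMI2 differed by 0.95 in siOCT1 cells, where both values lay below background, and by -0.79 in siControl cells, where it was at least 1.63-fold lower with DHT. FANCM differed by -1.33 in siOCT1 cells and by 1.34 in siControl cells, with all 4 values below background. CHEK2 differed by 0.82 in siOCT1 cells, with both values below background, and by -0.76 in siControl cells, where its DHT value lay below background. The difference between the siRNAs was not tested for any of them, and each rests on 1 array per group.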

How the results depend on the processing

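The counts were 22 genes lower and 0 higher with siOCT1 in the limma fit. The count of 22 moved by less than 1.5 times under every alternative except raising values to background. With values raised to the highest background over all named genes, limma called 0 of the 36 genes and 0 of all named genes. Most genes are then constant, as only 7734 of the 17687 exceeded that level on any array. Constant genes have a variance of 0 in this fit. XRCC3, with a difference of 0 between siOCT1 and siControl, had the same limma adjusted p of 0.487 as UBE2T with -2.08. The 0 calls are therefore no measure of the size of these differences. Under this setting the medians were -0.28 in vehicle and -0.77 in DHT, the median DHT response in siOCT1 cells was 0.00, and 14 genes were lower with siOCT1 and 2 higher with DHT by size. Leaving out genes at that level on every array, an alternative chosen after seeing the data, gave 13 genes called lower, 14 lower by size, 2 higher with DHT by size, medians of -0.64 and -1.09, a median DHT response of 0.072 in siOCT1 cells and a median change of the response of -0.36. Genes that exceeded that level only with siControl, such as BRCA1 and POLQ, could not be higher with siOCT1 there. Restricting to genes with a mean above background left 16 genes lower by size and 3 higher with DHT, since fewer genes were tested. With 32 added before the logarithm the vehicle median was -1.27. At 2-fold 1 gene was higher with DHT under both siRNAs, and with arrays centred on positive controls limma called 1 gene higher with DHT, RMI1. RMI2 became called lower under 3 alternatives and FANCE under loess centring. Over all named genes limma called 1044 lower and 575 higher with siOCT1, and 1311 and 1324 with positive control centring, which moved the median of all genes in vehicle to 0.25. For DHT it called 43 higher and 14 lower. These were 203 and 101 with positive control centring, 89 and 53 with loess, 29 and 6 with 32 added, 19 and 4 without trend, and 8 and 1 with raised values and constant genes left out. No called difference and no median past 1.5-fold changed direction under these alternatives. Leaving out an array leaves no residual degree of freedom and was not run. The additive fit already compares the siRNAs within each ligand state. No pairing of repeat cultures was possible because each group holds 1 array.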
